A study of Mus musculus with 12 samples.

Results

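Imprinted genes are transcribed mainly from the copy inherited from one parent. A group of 33 of them was followed in liver RNA of mice without Lcorl. In it, 14 are listed as expressed mainly from the maternal copy and 18 mainly from the paternal copy, in some tissue of the mouse. The other is Gnas, whose promoters differ in the parental copy they use. A listing need not hold in liver. The group was chosen by name, as known imprinted genes of the mouse, with earlier results of these data known. Shares of the group set beside all genes are therefore descriptive. All 33 were among the 17714 genes of the deposited table. Of these, 28 reached a mean of 10 normalized counts over the 12 livers and were tested: 11 maternally expressed, 16 paternally expressed and Gnas. A normalized count is the number of reads of a gene divided by a scaling factor for its library. The animals were female mice aged 3 weeks, taken at weaning, 6 with a global deletion of Lcorl (KO) and 6 wild-type (WT). The labels give each library its own animal and do not say how the deletion was made or whether any of the mice were littermates. The comparison asks what loss of Lcorl, a gene related to the nuclear receptor corepressor Lcor, does to the liver transcriptome.

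Most known imprints, though not all, are DNA methylation marks set in the germ line. Many of the marked control regions decide which copy of a whole cluster of neighbouring genes is transcribed. Many paternally expressed genes promote fetal growth and many maternally expressed genes restrain it. In the liver several of them, H19 and Igf2 among them, are abundant before birth and decline in the weeks after it. The libraries do not tell the parental copies apart, so every value below is the sum of both. In bulk tissue, fewer cells of a type and less RNA per cell cannot be told apart.

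The RNA of largest interest here, H19, is a non-coding transcript that contains the hairpin of the microRNA gene Mir675. The hairpin and its mature products, from RefSeq (GRCm38.p6), are shown because the reads counted for Mir675 and for H19 come from the same stretch of RNA. The hairpin lies at chr7:142577064-142577147 on the minus strand, inside H19 (chr7:142575529-142578143, minus strand, GRCm38). Capitals in the hairpin mark both mature products, and capitals in each mature product mark its seed, bases 2 to 8, which pairs with targets.
Mir675 hairpin: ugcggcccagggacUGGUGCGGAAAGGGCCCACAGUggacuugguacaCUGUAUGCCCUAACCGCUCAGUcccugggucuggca
mmu-miR-675-5p: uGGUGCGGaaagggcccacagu
mmu-miR-675-3p: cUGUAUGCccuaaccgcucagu
Neither seed was shared by any other of the 1679 mature mouse microRNAs searched (0 matches for each).

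Peg3, a paternally expressed zinc finger gene, starts back to back with Usp29, and the 146 bases between their outermost starts (chr7:6730432-6730577, GRCm38, shown on the minus strand, the direction of Peg3) are shown because these neighbours differed greatly in level. The stretch has 61.6% G and C and holds 5 CG pairs, marked here by no capitals.
Peg3 to Usp29: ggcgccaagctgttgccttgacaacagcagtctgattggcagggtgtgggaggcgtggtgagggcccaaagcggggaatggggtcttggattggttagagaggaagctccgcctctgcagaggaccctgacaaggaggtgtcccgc
Grb10, the maternally expressed gene with the most stable difference below, has a start in a dense run of CG pairs. The 250 bases before that start (chr11:12037421-12037670, GRCm38, minus strand) lie in an intron of a longer Grb10 transcript, have 81.2% G and C and hold 40 CG pairs.
Grb10 upstream: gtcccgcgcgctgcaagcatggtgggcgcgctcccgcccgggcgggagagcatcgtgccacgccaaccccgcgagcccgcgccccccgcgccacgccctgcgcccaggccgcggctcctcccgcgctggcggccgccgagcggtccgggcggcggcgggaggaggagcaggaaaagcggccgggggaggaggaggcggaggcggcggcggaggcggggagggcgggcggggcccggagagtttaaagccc
RefSeq start windows were taken from all chromosomes except 18, where Impact lies. They were found for 25 of the 33 members, 43 windows in all. The median number of CG pairs in the 250 bases before a start was 10 in the members and 6 in all 32851 windows. A binding word of Plagl1 (GGGGCCCC, searched on both strands) was in 1 of the 43 windows, the Peg3 window, outside the stretch printed above, and in 0.889% of all windows. The Zfp57 word TGCCGC was in 6 of the 43, before starts of Meg3, Mest, Plagl1, Zdbf2 and Zim1, and in 8.68% of all. The Yy1 word AAGATGGC was in 1, before Ube3a, and in 1.56% of all.

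Library depth ran from 21769795 to 28655120 reads in WT and from 27692285 to 31296485 in KO. In normalized counts Lcorl itself was at 275 ± 26.5 in the WT livers (SD, n = 6) and at 0.471 ± 1.15 in the KO livers (SD, n = 6), so every library matched its label. Liver identity was checked with hepatocyte markers: Alb, the albumin gene, was at 2229510 normalized counts or more in every library, and 0 of 9 tested hepatocyte markers differed (limma, 0 at an unadjusted p under 0.05, 0 in edgeR and 0 in DESeq2). Genes typical of other tissues stood out in some libraries: fat genes in WT 6 (values below, beside the genes they touch) and the pancreatic Reg1 in KO 2, at 126 normalized counts against 0 in the rest. Of the other pancreas genes measured, Ctrb1 was at 26.7 in KO 2 and at most 0.963 elsewhere. Cela2a was at 188 in KO 2 and between 32.7 and 80.6 elsewhere, and Cel was at 0 in KO 2. The source of these reads was not tested.

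H19 with its microRNA, Grb10, Peg3 and Impact rose in KO livers, and no tested member fell. By limma with Benjamini-Hochberg adjustment over all 13569 tested genes, 5 of the 28 tested members rose and 0 fell (1 lower at an unadjusted p under 0.05, 0 in edgeR, 0 in DESeq2), and 23 did not pass. The count depends on the fit: it was 3 with no filter, with equal library totals or with robust moderation, 1 to 3 without 1 of WT 1, WT 2, WT 3, WT 4, WT 5, KO 1, KO 3, KO 4 or KO 5 (4 or 5 without 1 of the others), and 1, Grb10, with the animal number runs described below as a block. At an unadjusted p under 0.05 there were 13 of 28, against 23.4% of all genes. Over all genes 4.43% were called, 1.75% as higher and 2.68% as lower. Mir675 repeats H19, and without it 4 of 27 rose. The members' median log2 difference (KO over WT) was 0.27, against 0.0075 over all genes, and 20 of 28 were higher in KO, 71.4% against 51.8% of all genes. With edgeR the count was again 5, against 4.1% of all genes called there. DESeq2 on the recovered reads called 8 of 30 members, all higher, against 8.68% of all genes called there and 3.92% called higher. These were the same 5 and Igf2, Slc38a4 and the sparse Zdbf2. The authors' deposited table gives the same 8 the same adjusted p, under 0.05. DESeq2 is also listed in the submitters' notes, so their table is not a separate test. Without WT 6 and KO 2, 6 members rose, against 6.77% of all genes called and 3% called higher: Impact missed the threshold (adjusted p = 0.0557) and Plagl1 and Airn passed (0.0281 and 0.0182). By parental copy, 3 of 11 maternally expressed members rose (median log2 difference 0.22) and 2 of 16 paternally expressed ones (0.35). Without Mir675 the maternal count is 2 of 10, and DESeq2 called 3 maternally and 5 paternally expressed members.

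The levels spanned a wide range. Per kilobase of exonic sequence, the mean in WT was 5650 normalized counts for Slc38a4 and 5464 for H19, 761 for Gnas, 142 for Igf2r, 88.4 for Grb10, 49.8 for Igf2, 11.4 for Peg3, 10.3 for Meg3 and 1.04 for Kcnq1ot1. Slc38a4 and H19 did not differ in this order beyond their spread, since H19 varied several-fold among WT livers, and neither did Peg3 and Meg3. In KO the order of the top pair turned, at 19289 for H19 and 7427 for Slc38a4 on the same per-kilobase scale.

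**Figure D1:**
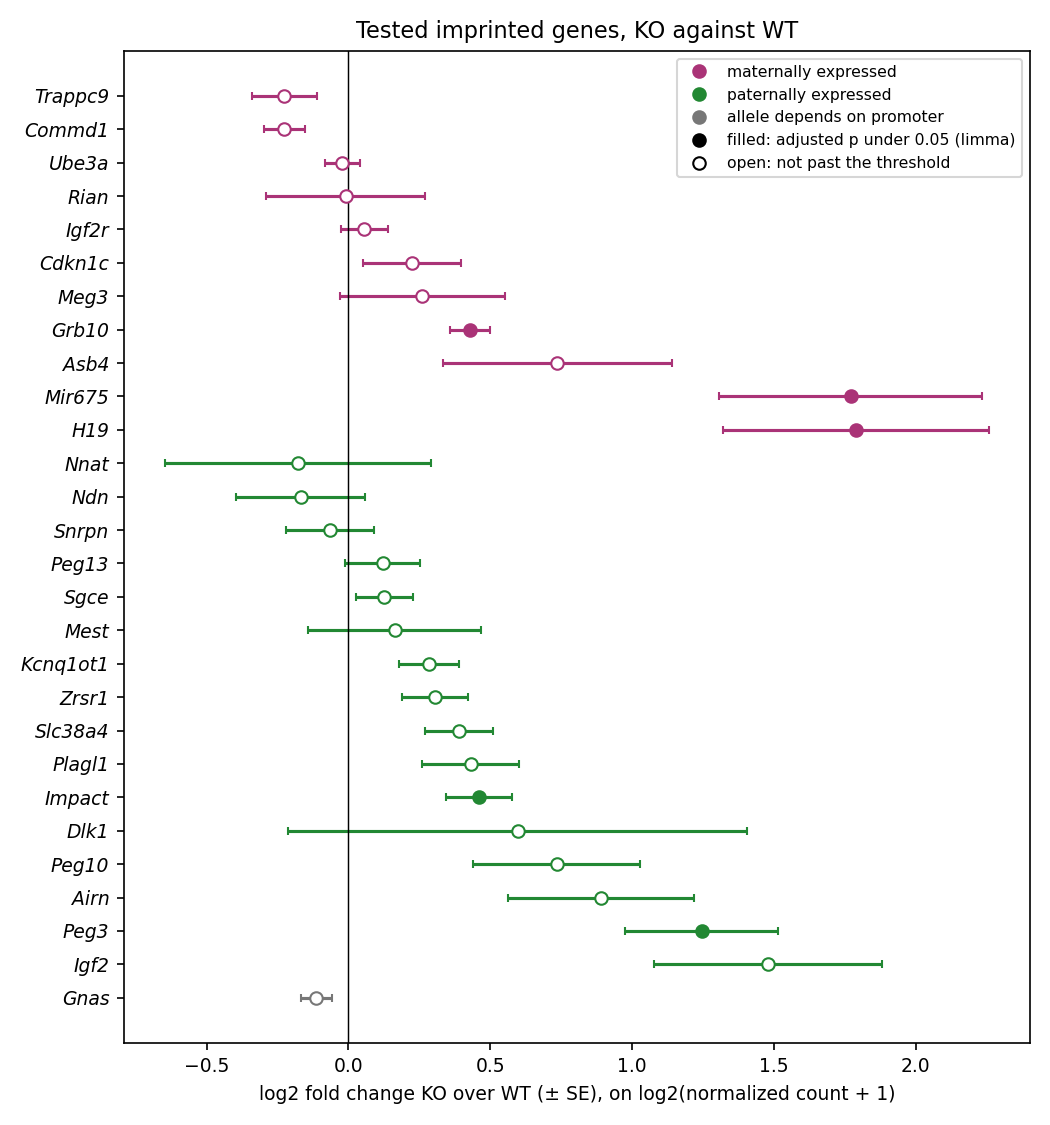
Log2 difference of normalized counts (KO over WT, log2(normalized count + 1) scale; points with bars of 1 standard error either side) for the 28 tested members, coloured by parental copy, with filled points for an adjusted p under 0.05 by limma. The differences run from -0.23 for Commd1 and Trappc9 to 1.79 for H19, and the 5 filled points all lie on the higher side.

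Among the maternally expressed genes, H19 differed most. H19 is a growth-restraining non-coding RNA of the distal chromosome 7 cluster, and its promoter competes with that of Igf2 for shared enhancers. In WT livers H19 had 3808 normalized counts at the lowest, 13217 at the median and 21481 at the highest. In KO livers it had 14681, 49220 and 72242. KO 5, KO 6 and KO 3 stood highest, at 72242, 71639 and 66524, and KO 2 alone lay inside the WT range, so the groups overlapped by 1 liver. The rise was 3.46-fold (log2 difference 1.79, SE 0.467, adjusted p = 0.0480 by limma, 0.00105 by DESeq2). The call sits at the threshold: the H19 call held without KO 2 (adjusted p = 0.0231), and without any 1 of the other 11 libraries it was lost (0.0533 to 0.0905), with the log2 difference between 1.46 and 2.08 throughout. H19 made up 0.0137% to 0.0768% of all reads in WT and 0.0493% to 0.265% in KO.

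Mir675 followed its host, with a lowest, median and highest value of 310, 1004 and 1597 in WT and 1030, 3736 and 5463 in KO. It rose 3.41-fold (log2 difference 1.77, SE 0.464, adjusted p = 0.0482 by limma), and leaving out any library other than KO 2 ended that call too (adjusted p up to 0.0922). Mir675 reads amounted to 6.84% to 8.13% of the H19 reads in every WT and KO liver, while the hairpin covers 3.41% of the exonic length of H19. The total RNA kit does not select mature microRNAs, so the counts are those of the H19 stretch around the hairpin and do not measure the mature products shown above.

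Grb10 encodes an adaptor that binds the insulin and Igf1 receptors and restrains growth, and outside neurons it is transcribed from the maternal copy. Its WT livers had 734, 798 and 882 normalized counts (lowest, median, highest) and its KO livers 973, 1050 and 1210. Every KO liver (6 of 6) exceeded the highest WT liver, with KO 1 and KO 4 highest at 1210 and 1197. The rise was small and steady, 1.35-fold (log2 difference 0.43, SE 0.0697, adjusted p = 0.00569 by limma). It passed in all 12 fits that left out 1 library (adjusted p 0.00397 to 0.0170), the only called member to do so. Over all tested genes, 1.3% had KO livers wholly above WT livers, and Grb10 and Peg3 were the members among them (2 of 28).

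The other maternally expressed members did not pass. Igf2r, the receptor that clears Igf2 from the cell surface, had 1178, 1317 and 1444 normalized counts in WT and 1187, 1316 and 1639 in KO, with overlapping groups (log2 difference 0.06, adjusted p = 0.738). Cdkn1c, an inhibitor of the cell cycle, lay between 162 and 212 in WT. In KO it was spread wider, with KO 1, KO 5 and KO 6 at 334, 282 and 270 and the other KO livers between 164 and 183 (log2 difference 0.22, adjusted p = 0.472). Asb4, a part of a ubiquitin ligase, ranged from 16.6 to 37.6 in WT and from 11.4 in KO 1 to 93.0 in KO 2 (log2 difference 0.74, adjusted p = 0.295). Ube3a, a ubiquitin ligase imprinted in neurons, had medians of 624 in both groups (log2 difference -0.02, adjusted p = 0.882).

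Among members listed as maternally expressed, Commd1 and Trappc9 had the lower means in KO that were furthest from 0. Commd1, which acts in copper handling and protein sorting, had 998, 1106 and 1125 normalized counts in WT and 795, 959 and 1048 in KO. KO 5 was the only KO liver inside the WT range, and the other 5 lay below it (log2 difference -0.23, SE 0.0720, adjusted p = 0.0896). Trappc9, a vesicle tethering subunit, had 275, 324 and 421 in WT and 261, 281 and 340 in KO (log2 difference -0.23, adjusted p = 0.261). The paternally expressed Zrsr1 shares 412 exonic bases with Commd1 on the opposite strand. The strand setting of the counting (not given in the sources used here) decides whether reads of that pair can be told apart. Peg13 lies inside Trappc9 on the same strand, where a strand setting cannot separate them, and shares 0 exonic bases with it.

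Meg3 and Rian are maternally expressed non-coding RNAs of the Dlk1 cluster on chromosome 12. Meg3 had 105, 146 and 444 normalized counts in WT and 167, 183 and 262 in KO. The highest value was that of WT 6, and the other 5 WT livers reached at most 173, with 5 of 6 KO livers above that (log2 difference 0.26, SE 0.290, adjusted p = 0.640). Without WT 6 the log2 difference of Meg3 was 0.55 (adjusted p = 0.0543). Rian had 47.0, 61.8 and 165 in WT, again with WT 6 on top, and 41.6, 68.6 and 92.2 in KO (log2 difference -0.01, adjusted p = 0.992). Dlk1, the paternally expressed Notch-like protein gene of the cluster, had 0.976, 3.04 and 99.1 in WT and 2.83, 7.48 and 21.2 in KO. WT 6 held 99.1 against at most 3.89 in the other WT livers, and without it Dlk1 averaged 6.29 over the 11 livers, below the filter (log2 difference 0.60, SE 0.809, adjusted p = 0.712 with WT 6). The direction turned on the count scale, where WT averaged 18.7 and KO 9.38 normalized counts, with a log2 difference of -1.03 by edgeR and -0.9999 by DESeq2. WT 6 was the liver with fat transcripts: Adipoq, Cfd, Plin1, Lep and Retn were at 53.4, 101, 30.5, 9.53 and 7.63 there and at most 0.976, 2.07, 1.04, 0 and 0.972 elsewhere. The sixth fat gene listed, Fabp4, was at 531 in WT 6 and between 398 and 1368 in all other livers. The part of the fat transcripts in these 3 values was not tested.

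**Figure D2:**
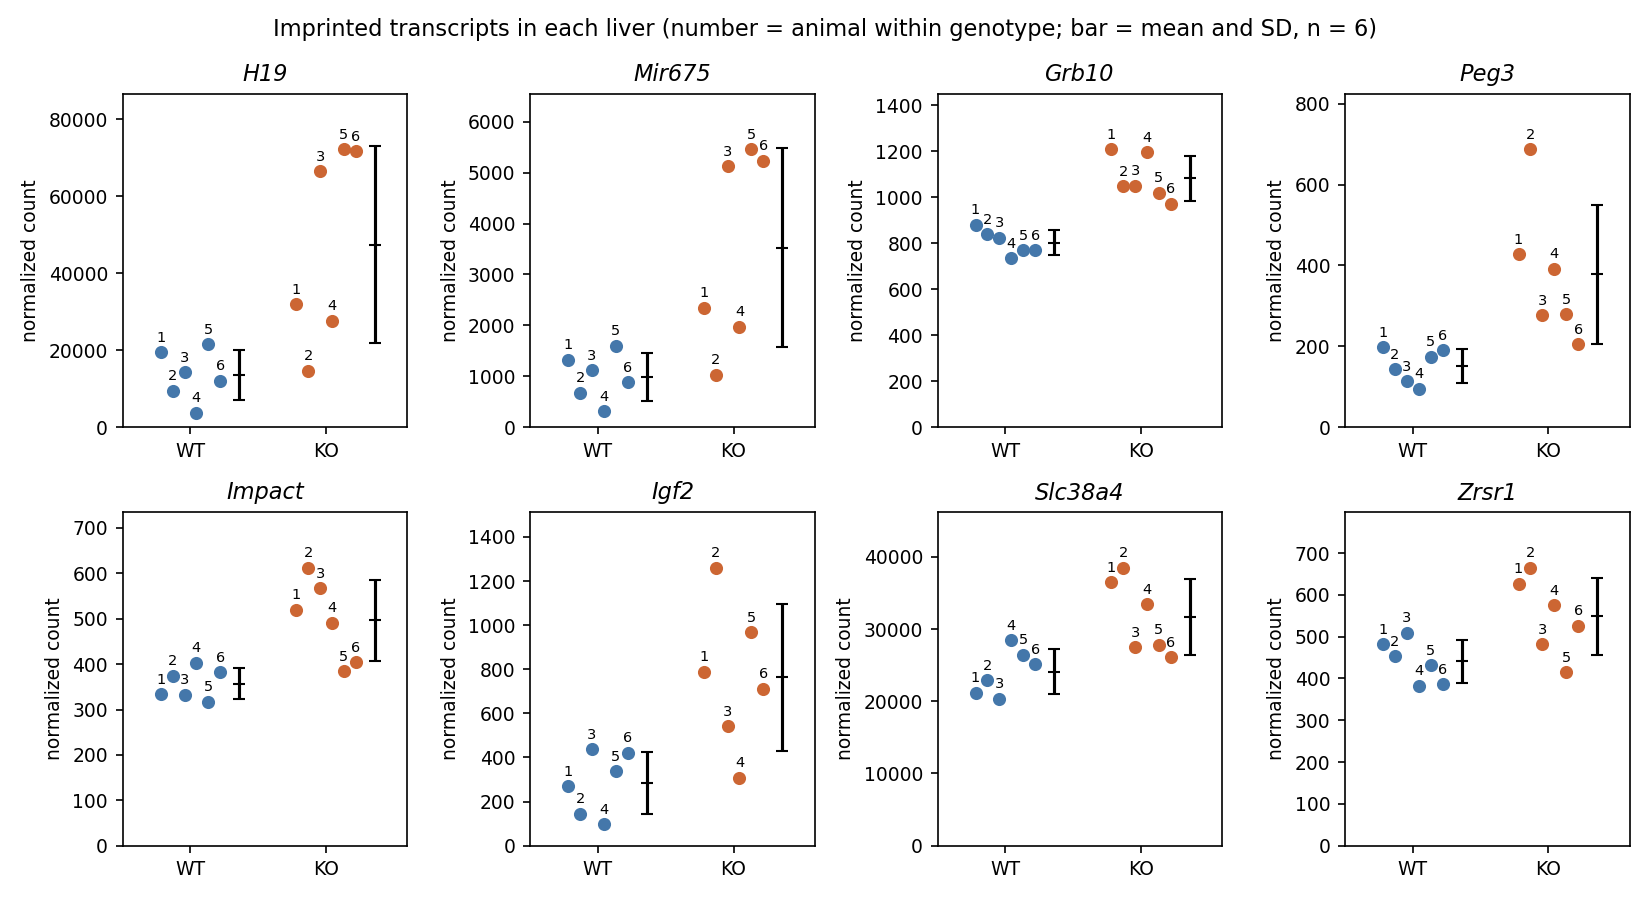
Normalized counts of 8 members on linear axes that start at 0, with 1 numbered point for each liver and a bar for the mean and SD of each genotype (n = 6). KO and WT points are fully separate for Grb10 (973 or more against 882 or less) and Peg3 (205 or more against 198 or less) and overlap for the other members drawn.

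Igf2, the fetal growth factor gene 72622 bases from H19, is transcribed from the paternal copy. Its lowest, median and highest values were 98.1, 303 and 437 normalized counts in WT and 308, 750 and 1261 in KO. KO 2, the liver with the least H19 of the KO group, had the most Igf2, and KO 4, at 308, was the only KO liver inside the WT range. The difference was 2.79-fold (log2 difference 1.48, SE 0.402) and just missed the threshold by limma (adjusted p = 0.0555), while DESeq2 called it (0.00343). By limma it passed without WT 6 (0.0377) or without KO 4 (0.0441). Reads summed over the group were 1692 in WT and 4798 in KO for Igf2, and 78699 and 307777 for H19. The ratio of H19 to Igf2 reads in a liver ran from 28.7 to 72.1 in WT and from 11.6 in KO 2 to 123 in KO 3. A gene on the same strand shares 3596 exonic bases with Igf2 in the annotation, so its counts are uncertain to that extent.

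Peg3 encodes a zinc finger protein that acts on growth and maternal behaviour. It had 95.6, 159 and 198 normalized counts in WT and 205, 336 and 688 in KO. The groups did not overlap, though KO 6, at 205, lay just above WT 1, at 198, and KO 2 and KO 1 stood highest, at 688 and 428. Peg3 rose 2.37-fold (log2 difference 1.25, SE 0.269, adjusted p = 0.0243 by limma). The call was lost without WT 2, WT 3, WT 4, KO 1 or KO 4 (adjusted p 0.0510 to 0.0599), and the log2 difference stayed between 1.05 and 1.40. Its neighbour Usp29, a ubiquitin protease gene across the 146 bases printed above, had 4 reads over all WT livers and 5 over all KO livers. Zim1, a maternally expressed zinc finger gene of the same cluster, had 7 and 13 reads, so neither could be tested.

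Impact, a regulator of the Gcn2 kinase that senses amino acids, lies on chromosome 18 and is expressed from the paternal copy. It had 317, 354 and 403 normalized counts in WT and 384, 506 and 613 in KO. KO 5, at 384, was inside the WT range, and the other 5 KO livers were above it. Impact rose 1.38-fold (log2 difference 0.46, SE 0.116, adjusted p = 0.0430 by limma). It kept its call only without WT 6, KO 5 or KO 6, and without any 1 of the other 9 libraries the adjusted p lay between 0.0568 and 0.0912.

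Slc38a4, an amino acid transporter of hepatocytes and the placenta, had 20335, 24024 and 28422 normalized counts in WT and 26133, 30647 and 38501 in KO. KO 2, KO 1 and KO 4 lay above every WT liver, at 38501, 36507 and 33466, and the other 3 KO livers lay within the WT range. The difference of 1.31-fold was not called by limma (log2 difference 0.39, SE 0.120, adjusted p = 0.0814) and was called by DESeq2 (0.0230). Without KO 6 it passed by limma too (0.0491). Zrsr1, a splicing factor related gene, had 382, 442 and 509 in WT and 415, 551 and 665 in KO, with 4 KO livers above all WT (log2 difference 0.30, adjusted p = 0.140).

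Plagl1, a zinc finger regulator of the imprinted gene network, had 126, 165 and 255 normalized counts in WT and 177, 227 and 288 in KO. WT 6 was the highest WT liver, and without it the log2 difference of Plagl1 went from 0.43 (adjusted p = 0.154) to 0.55 (0.0474). Peg10, a retrotransposon-derived gene, had 34.4, 60.9 and 92.9 in WT and 48.7, 93.7 and 149 in KO (log2 difference 0.73, adjusted p = 0.157). Sgce starts 98 bases from Peg10 on the other strand and encodes a sarcoglycan. It lay between 283 and 397 in WT and between 316 and 413 in KO (log2 difference 0.13, adjusted p = 0.477).

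Airn and Kcnq1ot1 are long non-coding RNAs that silence their neighbours on the paternal copy. Airn, antisense to Igf2r, had 14.1, 16.1 and 40.0 normalized counts in WT and 18.8, 39.5 and 65.8 in KO, with WT 6 and WT 4 reaching 40.0 and 33.1 and the other WT livers at most 16.6 (log2 difference 0.89, adjusted p = 0.127). With WT 6 and KO 2 both left out, Airn passed (log2 difference 1.28, adjusted p = 0.0182). Igf2r, its target, was named above with a log2 difference of 0.06. Kcnq1ot1, inside Kcnq1, had 82.8, 91.6 and 123 in WT and 105, 119 and 126 in KO, with WT 3 the only WT liver inside the KO range (log2 difference 0.28, adjusted p = 0.127). Cdkn1c and Phlda2 belong to the cluster that Kcnq1ot1 silences. Phlda2, a restraint on placental growth, had 17 reads over all WT and 12 over all KO livers.

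The remaining paternally expressed members did not pass. Mest, a hydrolase-like gene of mesoderm, ranged from 339 to 656 in WT and from 223 in KO 2 to 908 in KO 4 (log2 difference 0.16, adjusted p = 0.802). Snrpn, a splicing protein gene whose counts equal those of its overlapping partner Snurf, ranged from 318 to 486 in WT and from 244 to 446 in KO (log2 difference -0.06, adjusted p = 0.853). Ndn, a growth-suppressing gene of neurons, ranged from 24.4 to 55.3 in WT and from 25.7 to 57.8 in KO (log2 difference -0.17, adjusted p = 0.713). Nnat, a proteolipid gene, reached 44.8 in WT 6 and at most 22.96 in the other livers (log2 difference -0.18, adjusted p = 0.864). Peg13, a non-coding RNA, ranged from 150 to 220 in WT and from 155 to 276 in KO (log2 difference 0.12, adjusted p = 0.636). These groups overlapped widely, and none of the 5 had a KO range wholly above or below WT.

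Zdbf2, a zinc finger gene paternally expressed after birth, was below the filter with a mean of 6.89. Its WT values were 1.27, 3.22 and 4.88 normalized counts and its KO values 3.65, 9.72 and 18.8, from 19 and 67 reads. KO 2, KO 4, KO 3 and KO 5 lay above all WT livers, and KO 1 and KO 6 within them. DESeq2, which does not apply this filter, called it (log2 difference 1.69, adjusted p = 0.0327). Mirg, the third non-coding RNA of the Dlk1 cluster, had a mean of 7.21, with 39 reads in WT and 49 in KO. Gnas, the gene of the stimulatory G protein subunit, had 7910, 8670 and 8815 in WT and 7422, 7769 and 8650 in KO (log2 difference -0.11, SE 0.0551, adjusted p = 0.238).

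**Figure D3:**
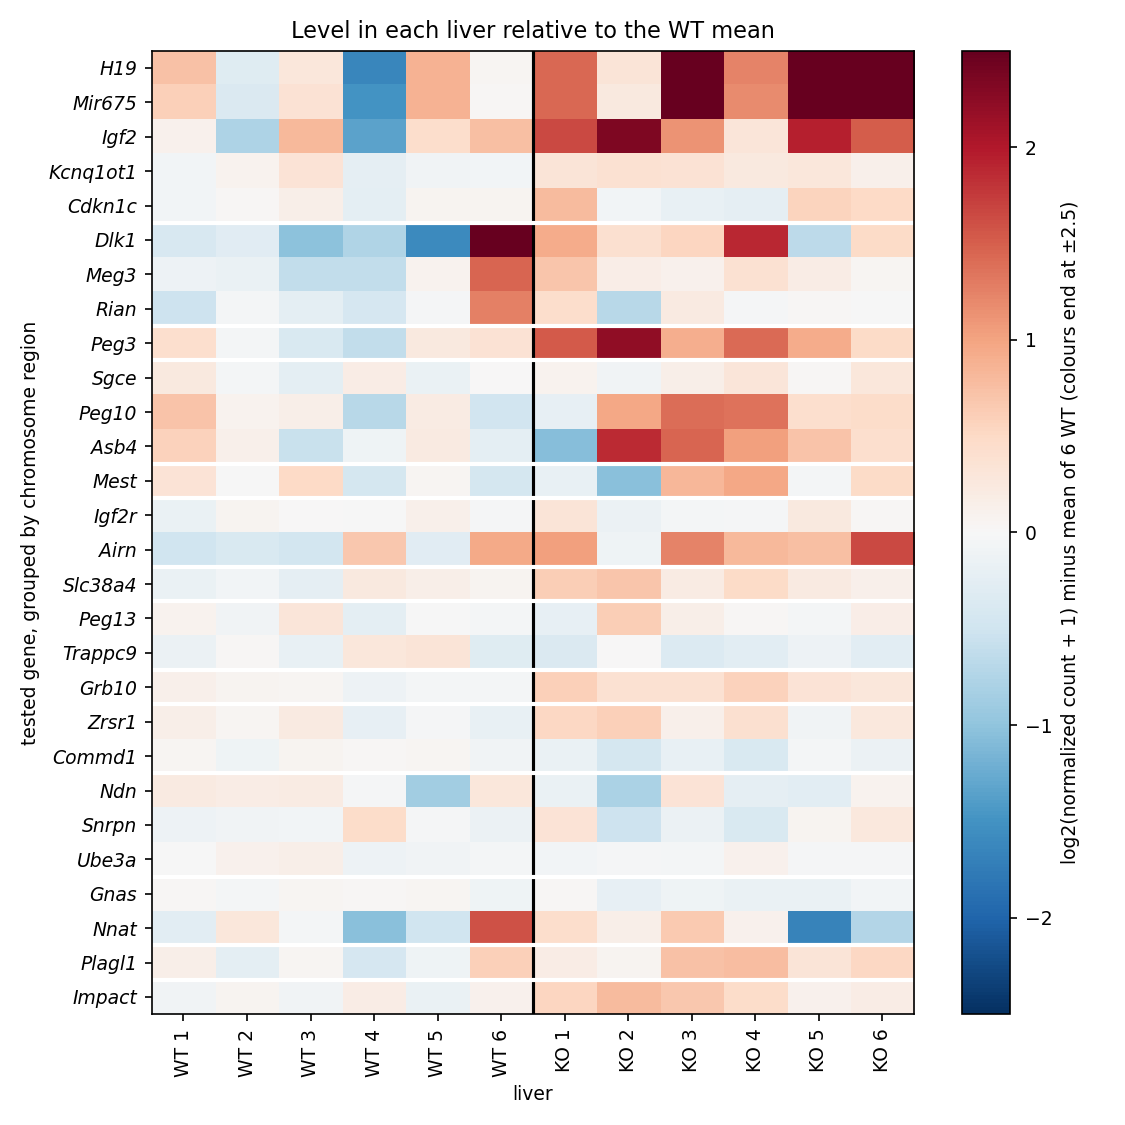
Each tested member (rows, grouped by chromosome region) in each of the 12 livers (columns), coloured by its log2(normalized count + 1) value minus the WT mean of that gene, with the colours ending at 2.5 either side of 0. KO 2 is high for Peg3, Slc38a4, Impact and Igf2 and low for Mest, KO 3, KO 5 and KO 6 are high for H19 and Mir675, and WT 6 stands out for Dlk1, Meg3, Rian and Nnat.

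The members did not rise in the same KO livers. H19 was ordered KO 5, KO 6, KO 3, KO 1, KO 4 and KO 2 from the highest down. Peg3 and Slc38a4 shared a different order, KO 2, KO 1, KO 4, KO 5, KO 3 and KO 6, and Zrsr1 and Impact were also highest in KO 2. Grb10 was highest in KO 1 and KO 4 and lowest in KO 6, and Mest was highest in KO 4 and lowest in KO 2. In WT, liver WT 4 was the lowest for H19, Igf2, Peg3, Grb10 and Zrsr1 and the highest for Slc38a4 and Impact.

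Some markers of dividing and of other cells moved with genotype and liver as well. All 10 tested cell cycle genes were lower in KO and 4 fell by limma (Rrm2, Aurka, Birc5 and Ccna2), against 2.68% of all genes. The median log2 difference of the list was -1.43, and 2 were called in edgeR and 7 in DESeq2. Birc5 and Ccna2 missed the threshold in edgeR (adjusted p = 0.0517 and 0.0551), and with the animal number runs described below as a block all 4 did (0.162 to 0.196). These calls held without WT 6, KO 3 or KO 6 and, for Birc5, KO 5, and were lost without any 1 other library (adjusted p up to 0.0930). Their summed level ran from 1936 to 6328 normalized counts in WT. Among the KO livers, KO 2 had 460, KO 1 had 661, KO 4 had 1205, KO 5 had 1647, KO 6 had 2348 and KO 3 had 2533, so that KO 2, KO 1 and KO 4, the highest for Peg3 and Slc38a4, had the least. This order did not extend to WT, where WT 1 had both the highest sum, 6328, and the most Peg3, and WT 6 had the lowest sum, 1936, and the next highest Peg3. All 12 stellate cell and fibroblast markers were lower in KO (median log2 difference -0.38), and 1 fell by limma (Lum, log2 difference -0.72, adjusted p = 0.0440). The Lum call held only without WT 4, KO 3 or KO 6, with an adjusted p up to 0.0963 without 1 of the others. Lum missed the threshold in edgeR (0.0551) and with the block (0.152). At an unadjusted p under 0.05 by limma there were 6 of the 12, and 0 were called in edgeR. DESeq2 called 2, Lum among them (0.00873). The summed level of the list was 20795 to 30112 in WT and 12661 to 26757 in KO. Of 10 endothelial markers 8 were lower and 0 were called by limma (2 at an unadjusted p under 0.05, 0 in edgeR and 0 in DESeq2), with sums of 9554 to 15917 in WT and 6815 to 14356 in KO. None of these 22 markers was at 0. Of 10 erythroid genes 7 were lower in KO (median log2 difference -0.72), and 1 rose and 0 fell by limma. Their sums were 11843 to 50946 in WT and 12926 to 30103 in KO. At an unadjusted p under 0.05 by limma there were 5, in both directions. Hbb-bt, Hba-a1 and Hba-a2 were lower, and Klf1 (log2 difference 0.48) and Tfrc were higher. The gene that rose, Tfrc, the transferrin receptor gene, is also expressed outside red cells. It averaged 1842 ± 562 (WT) and 4254 ± 1704 (KO; SD, n = 6 each; log2 difference 1.17, SE 0.271, adjusted p = 0.0321), and its call was lost with the block (0.0889) and without WT 1, WT 2, WT 5, KO 1, KO 4 or KO 5 (up to 0.0695). The globin genes Hba-a1 and Hba-a2 have equal counts and cannot be told apart. Other marker lists did not lean lower. In KO 7 of 9 Kupffer cell, 6 of 8 lymphocyte and 4 of 7 cholangiocyte genes were higher. Their median log2 differences were 0.13, 0.12 and 0.01, and 0 were called by limma, edgeR or DESeq2. At an unadjusted p under 0.05 by limma there were 1, 0 and 2. The part of all these cells in the members' differences was not tested.

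The labels number the animals, and the numbers fall into 4 runs with gaps of 10 or more between them. Within the 3 runs that hold both genotypes, the log2 differences of the called members kept their direction. H19 differed by 0.72, 2.98 and 2.16 in runs 1, 3 and 4, Grb10 by 0.46, 0.58 and 0.37, Peg3 by 1.11, 2.13 and 0.40 and Impact by 0.64, 0.46 and 0.18. Igf2 differed by 1.55, 2.59 and 1.14. Run 1 is 1 liver of each genotype, and run 2 holds WT livers only. With the run as a block in limma, Grb10 kept its call (adjusted p = 0.0170), the only one of the 28, against 1.16% of all genes called. H19, Mir675, Impact and Peg3 came to 0.0579, 0.0590, 0.123 and 0.126. What the runs stand for is not given in the labels.

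Pairs of neighbouring or network members were compared within each genotype, over 6 livers each. Of 12 pairs named, 10 had both members above the filter, giving 20 relations, and 0 passed the exact permutation test after adjustment (3 at an unadjusted p under 0.05 for Pearson's r, 1 for Spearman's rho). H19 and Igf2 had r = 0.79 and rho = 0.54 in WT (exact permutation p = 0.0486 and 0.297, adjusted 0.324 and 0.765), and r fell to 0.43 without WT 4 and WT 5. In KO they had r = -0.15 and rho = -0.03 (exact permutation p = 0.767 and 1). Mest and Igf2 ran opposite ways in KO, with r = -0.90 and rho = -0.94 (exact permutation p = 0.0181 and 0.0167, adjusted 0.324 and 0.333), and r was -0.88 without KO 2 and KO 4. In WT their r was 0.42 (exact permutation p = 0.374), and the difference between genotypes was not tested. Meg3 and Rian had r = 0.93 and rho = 0.60 in WT (exact permutation p = 0.0361 and 0.242, adjusted 0.324 and 0.765), a relation that rests on WT 6, since r was 0.52 without WT 3 and WT 6. Dlk1 and Meg3 had r = 0.89 in WT (exact permutation p = 0.107), and it turned to -0.19 without WT 6.

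**Figure D4:**
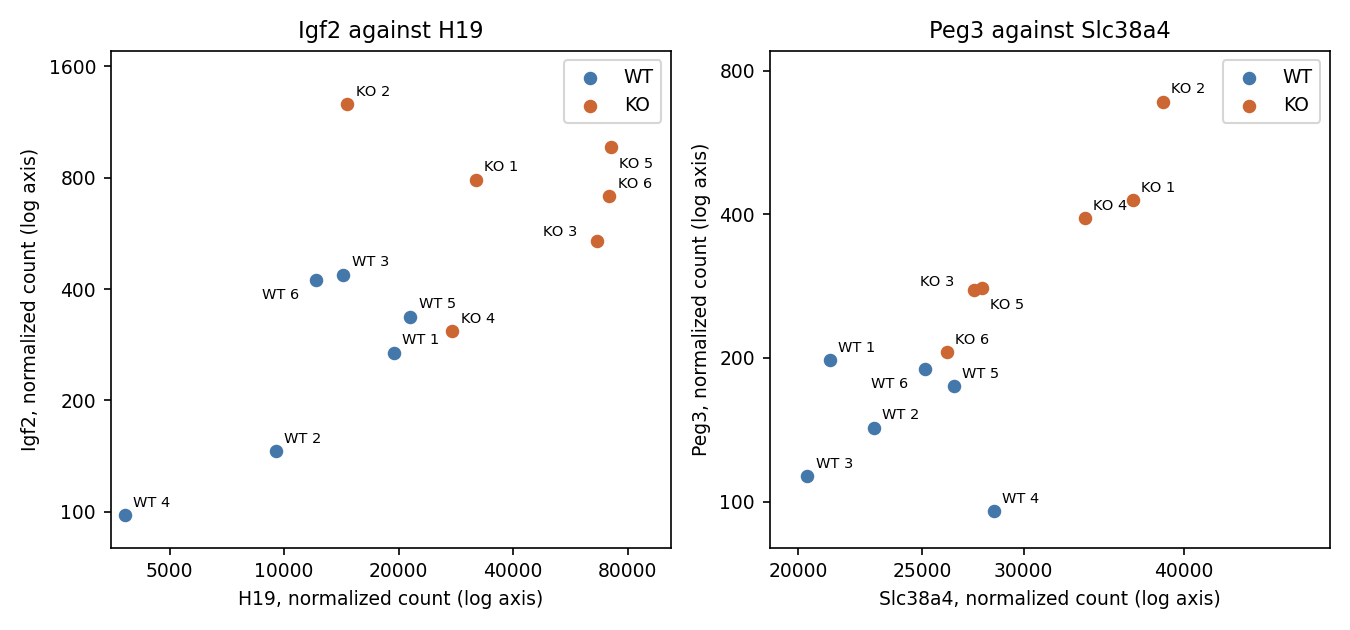
Normalized counts on log axes of Igf2 (vertical) against H19 (horizontal), and of Peg3 (vertical) against Slc38a4 (horizontal), with each point 1 of the 12 livers, coloured by genotype. KO 2 has the most Igf2 (1261) and the least H19 (14681) of the KO livers, and it is the highest liver for both Peg3 (688) and Slc38a4 (38501).

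Other imprinted genes and the proteins that set or keep imprints gave few calls. These too were listed by name, and their parental expression in liver was not measured. Of 23 other genes listed as maternally expressed and tested, 0 rose and 1 fell by limma, against 4.43% of all genes called. At an unadjusted p under 0.05 by limma there were 9 of the 23, in both directions, against 23.4% of all genes. The calls were 1 in edgeR and 3 in DESeq2, and the median log2 difference was -0.08. DESeq2 also called Nap1l4, a histone chaperone gene, as higher (0.0438) and Cd81, a tetraspanin gene, as lower (0.0299), where limma gave an adjusted p of 0.103 and 0.0985. The gene that fell, Tfpi2, encodes a protease inhibitor of the placenta and extracellular matrix. The WT livers averaged 1883 ± 522 normalized counts (SD, n = 6) and the KO livers 1158 ± 116 (SD, n = 6), without overlap (log2 difference -0.67, SE 0.138, adjusted p = 0.0204 by limma, 0.0349 with the run as a block). Without KO 1 or KO 4 its adjusted p lay above the threshold, at up to 0.0554. Of 9 other genes listed as paternally expressed, 0 were called (1 at an unadjusted p under 0.05, 0 in edgeR, 0 in DESeq2), with a median of 0.06. Of 19 genes for imprint control, 0 were called by limma (5 at an unadjusted p under 0.05, 0 in edgeR, 1 in DESeq2), with a median of -0.01. Ctcf, the factor that insulates Igf2 from the shared enhancers, averaged 1071 ± 63.5 (WT) and 1077 ± 58.0 (KO; SD, n = 6 each). Hells, a chromatin remodeller for DNA methylation, was the call in DESeq2 (0.0104). It averaged 141 ± 54.1 (WT) and 60.5 ± 30.5 (KO; SD, n = 6 each), with an adjusted p of 0.0586 by limma, beside the lower cell cycle genes given above.

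A list of genes tied to H19 and Igf2 was also tested. It held Igf receptors and binding proteins of their RNAs, and genes that share the postnatal fall of H19 in liver. This list too was chosen with earlier results of these data known. Of 14 tested, 4 rose and 0 fell by limma, with a median log2 difference of 0.25 and 3 lower. The calls were 4 in edgeR and 6 in DESeq2. Over all genes, limma called 1.75% as higher, edgeR called 4.1% and DESeq2 8.68%. The 2 further calls of DESeq2, Igf1 and Zhx2, were both lower in KO. Igf2bp2, which binds Igf2 RNA, averaged 63.4 ± 19.6 (WT) and 122 ± 33.4 (KO; normalized counts, SD, n = 6 each), higher in 6 of 6 KO livers than in any WT liver (log2 difference 0.96, SE 0.240, adjusted p = 0.0426). The Igf2bp2 call held only without WT 6, KO 5 or KO 6, and its adjusted p reached 0.0912 without 1 of the others, 0.112 with the run as a block and 0.0648 without WT 6 and KO 2. Afp, Gpc3 and Lpl, listed as genes that share the postnatal fall, rose with log2 differences of 1.89, 1.34 and 0.70. Their adjusted p by limma was 0.00801, 0.00654 and 0.0184, and they kept their calls without any 1 library. In WT livers Lpl averaged 10988 ± 2259 normalized counts and H19 13441 ± 6497 (SD, n = 6), so neither was off at this age. With the run as a block, Lpl lost its call (adjusted p = 0.0821), while Afp and Gpc3 kept theirs (0.0211 and 0.0223). Afp was highest in KO 1 (1397) and lowest in KO 3 (254), and the KO livers with the most H19, KO 5, KO 6 and KO 3, had 487, 454 and 254. Zhx2, a repressor of both H19 and Afp in adult liver, averaged 414 ± 44.9 (WT) and 342 ± 19.7 (KO; SD, n = 6 each), with 5 of 6 KO livers below all WT (log2 difference -0.27, adjusted p = 0.0645 by limma, 0.0225 by DESeq2). Igf1, the growth factor gene that liver expresses after birth, averaged 17363 ± 7540 (WT) and 7026 ± 3764 (KO; SD, n = 6 each), with 3 of 6 KO livers below all WT (log2 difference -1.34, SE 0.403, adjusted p = 0.0746 by limma, 0.0221 by DESeq2). Igf1r, the receptor through which Igf2 signals, did not pass (log2 difference 0.26, adjusted p = 0.197).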

How the data were processed

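Frozen liver gave total RNA for TruSeq libraries (total RNA kit, per the labels). Of tools, STAR, featureCounts, DESeq2 and FastQC are listed in the submitters' processing notes, with build mm10 (versions, annotation and strand setting: not given in the sources used here). Each deposited signal value is a gene's count that the authors divided by 1 size factor per library; whole reads were recovered for 100% of values (tolerance 0.001 reads). The authors also deposited their own comparison, with log2 fold changes and p-values for each gene. The 33 members and the other lists were chosen with earlier results of these data known.

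KO and WT were compared with limma 3.58.1 (R 4.3.3, trend) on log2(normalized count + 1), which understates changes of low genes, for genes whose mean over the 12 livers reached 10. Tests were two-sided with Benjamini-Hochberg adjustment at 0.05. Livers WT 1 to 6 and KO 1 to 6 are numbered in accession order; p-values measure the spread between these animals. edgeR 4.0.16 (quasi-likelihood) and DESeq2 1.42.0 on recovered reads, other pseudocounts (0.5, 10), filters (none, 50) and scalings, robust moderation, library weights, a block for animal number runs and leaving out libraries were the alternatives. DESeq2 gave no adjusted p for 3 members. Named in full were members past the threshold by any tool and H19, Igf2, Dlk1, Meg3, Igf2r and Grb10; of other lists, up to 4 called genes by smallest p, and Alb, fat and pancreas markers, Ctcf, Hells, Zhx2, Igf1, Igf1r, Nap1l4, Cd81 and the Hba genes were added after their values were seen. On simulated data (13569 genes, 200 changed) limma recovered 58.2%, 89.6% and 92.4% of genes changed 1.5-, 2- and 4-fold, with 5.88% of calls false. The simulated spread came from the 6 WT livers alone, for both groups and without runs. These rates may therefore not hold for genes that spread wider in KO livers. Positions are from GENCODE M21 (GRCm38), and sequences from RefSeq (GRCm38.p6).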

Additional observations from a re-analysis of the deposited data

Results flagged for a closer look

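In each genotype, the highest and lowest liver of every tested member was set against Dixon's 95% critical value for 6 samples, 0.625. Of 56 groups examined 7 held a liver that stood apart. Chance gives about 1 in 20 groups where values are normally spread and groups are independent. These groups share their livers, and Mir675 repeats H19, so the 7 cannot be set against that rate. Liver WT 6 stood high for 4 members: Dlk1 at 99.1 normalized counts (next WT liver 3.89), Meg3 at 444 (173), Rian at 165 (66.3) and Nnat at 44.8 (17.5). The other 3 were Snrpn in WT 4 at 486 (next 344), Ndn in WT 5, low at 24.4 (next 44.6), and Ube3a in KO 4 at 687 (next 626). WT 6 is the liver with fat transcripts, and their part in its 4 values was not tested. None of the 5 called members had a liver that stood apart in either genotype.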

How the results depend on the processing

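Depth limited the members of few reads: 5 of 33 were not tested, among them Usp29 (4 and 5 reads in WT and KO). The 5 called members were 8 by DESeq2 and 3 with no filter, with equal library totals or with robust moderation, where H19 and Mir675 dropped out (adjusted p 0.0531 to 0.0645), and they were 1 to 5 when 1 library was left out. No paired analysis was possible because the labels give the 2 genotypes no shared replicate numbers; the block of animal number runs kept 1 member and 158 genes. Of the other imprinted, imprint control and partner genes, an examination added after seeing the data, 5 calls became 10 by DESeq2, 8 with library weights, 3 with the block and 3 to 8 with 1 library left out. Over all genes, 601 calls became 1323 by DESeq2, 917 without WT 6 and KO 2 (6 members, 3% of genes called higher), and 224 to 933 when 1 library was left out, so leaving out a library changes how many genes pass as well as the members. All log2 differences of the called members kept their sign under every alternative. Members near 0 turned: Rian to 0.0031 with equal upper quartiles, 0.13 with library weights, 0.026 with the block, 0.38 without WT 6 and KO 2, and -0.12 to 0.24 with 1 library left out; Ube3a to 0.044 with the block and -0.046 to 0.0099 with 1 left out; Nnat to 0.077 and Ndn to 0.013 without WT 6 and KO 2; Nnat to -0.39 to 0.14 and Snrpn to -0.14 to 0.029 with 1 left out; and Dlk1 to -1.029 by edgeR (DESeq2 gave -0.9999, with no adjusted p). The cause was not tested. Among pairs, r changed sign when 1 liver was left out for H19 with Igf2 in KO (-0.69 to 0.57), Dlk1 (-0.45 to 0.16), Meg3 (-0.18 to 0.66), Cdkn1c (-0.21 to 0.90) and Afp (-0.70 to 0.66) in WT, Plagl1 in WT (-0.028 to 0.84) and KO (-0.018 to 0.79), for Meg3 with Rian in KO (-0.077 to 0.64), Dlk1 with Meg3 in WT (-0.19 to 0.99), and Sgce with Peg10 in WT (-0.90 to 0.40; 0.021 with equal totals) and KO (-0.10 to 0.47). Other scalings moved the median of all genes by under 0.1 (log2).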
